A study of Mus musculus with 15 samples.

Results

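Hmgcs1, Sqle, Fdft1 and Lss encode enzymes of cholesterol synthesis, Srebf1 and Srebf2 encode the sterol regulatory element binding proteins (SREBPs) that switch such enzymes on, and Insig1 encodes the membrane protein that holds SREBPs back. These 7 genes were taken by symbol from the 23235 genes of the expression table, as lipid synthesis genes with a known daily rhythm. The rule uses no measured value, but the genes were chosen with earlier results of these data known. All 7 had an entry, but Hmgcs1 was listed at 0 in all 4 groups, so values are given for 6 of them. The table held gene expression in the cortex of adult mice by RNA-seq. WT mice were C57BL/6J, and Snord116del mice carried a deletion of the Snord116 repeat cluster of the Prader-Willi locus in strain B6(Cg)-Snord116tm1.1Uta/J, with genotype +/- in the labels. The paper states that the cortex samples came from males, that the WT mice were littermates and that the deletion was inherited from the father. The table covered 4 groups: WT at Zt +6 (3 samples), Snord116del at Zt +6 (2 samples), WT at Zt +16 (2 samples) and Snord116del at Zt +16 (2 samples). Zt is zeitgeber time, in hours after lights on, so that Zt +6 lies in the light and Zt +16 in the dark. All mice were on standard chow in a light/dark cycle. Peaks from adult brain came from ChIRP-seq (chromatin isolation by RNA purification), in which biotinylated oligos against an RNA pull down the DNA it lies on. The oligos were directed at 116HG, the spliced host transcript of the Snord116 repeats, or were a non-specific control set (NSC). The 116HG oligos were used on WT brain (2 libraries) and on Snord116del brain (1 library). The NSC oligos were used on WT brain (1 library) and on Snord116del brain (1 library).

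Cells make cholesterol from acetyl-CoA. The enzyme of Hmgcs1 makes HMG-CoA, the mevalonate arm follows, the enzyme of Fdft1 joins farnesyl units into squalene, that of Sqle oxidises squalene, and that of Lss closes the ring to lanosterol, the first sterol. When sterols in the endoplasmic reticulum run low, SREBPs leave INSIG proteins, travel with the escort SCAP to the Golgi, are cut there by the proteases of Mbtps1 and Mbtps2, and enter the nucleus. SREBP-2 acts mainly on sterol synthesis and uptake and SREBP-1 mainly on fatty acid synthesis. In the brain most cholesterol is made locally, by oligodendrocytes for myelin and by astrocytes for supply to neurons.

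The SREBPs read sterol regulatory elements in promoters, and RefSeq promoter windows on assembly GRCm38.p6 were at hand for 5 of the 7 genes (7 windows, 3 of them at Srebf1). Sqle and Fdft1 were not among them. The 250 bases before the annotated start were searched on both strands for TCACNCCAC, a core of the sterol regulatory element, its overlapping relative TCACCCCA, the E-box CACGTG bound by clock proteins, the CCAAT box CCAAT and the GC box GGGCGG. The windows below are shown as stretches that were searched, with matches to the first 3 motifs in capitals. Each runs 5′ to 3′ on the strand of its gene.
Hmgcs1, chr13:119690101-119690350, plus strand: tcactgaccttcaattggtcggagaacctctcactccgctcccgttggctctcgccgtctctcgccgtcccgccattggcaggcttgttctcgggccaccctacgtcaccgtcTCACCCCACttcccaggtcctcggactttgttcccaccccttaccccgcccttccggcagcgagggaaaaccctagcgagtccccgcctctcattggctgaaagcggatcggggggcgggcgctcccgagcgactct
Srebf2, chr15:82147019-82147268, plus strand: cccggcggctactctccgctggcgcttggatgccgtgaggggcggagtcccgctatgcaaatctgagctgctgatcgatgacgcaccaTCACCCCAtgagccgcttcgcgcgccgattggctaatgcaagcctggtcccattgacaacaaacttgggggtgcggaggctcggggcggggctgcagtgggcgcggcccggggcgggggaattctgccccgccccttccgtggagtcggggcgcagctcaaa
Insig1, chr5:28071162-28071411, plus strand: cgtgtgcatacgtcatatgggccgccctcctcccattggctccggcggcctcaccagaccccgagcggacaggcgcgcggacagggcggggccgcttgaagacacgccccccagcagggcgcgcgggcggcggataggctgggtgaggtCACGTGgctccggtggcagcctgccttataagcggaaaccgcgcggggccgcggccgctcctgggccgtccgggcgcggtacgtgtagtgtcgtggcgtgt
Srebf1, first window of 3, chr11:60210472-60210721, minus strand: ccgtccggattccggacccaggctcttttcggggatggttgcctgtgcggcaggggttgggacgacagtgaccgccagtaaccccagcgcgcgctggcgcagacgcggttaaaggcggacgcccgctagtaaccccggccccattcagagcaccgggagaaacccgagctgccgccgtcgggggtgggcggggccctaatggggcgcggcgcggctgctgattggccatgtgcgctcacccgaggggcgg
Lss, chr10:76531355-76531604, plus strand: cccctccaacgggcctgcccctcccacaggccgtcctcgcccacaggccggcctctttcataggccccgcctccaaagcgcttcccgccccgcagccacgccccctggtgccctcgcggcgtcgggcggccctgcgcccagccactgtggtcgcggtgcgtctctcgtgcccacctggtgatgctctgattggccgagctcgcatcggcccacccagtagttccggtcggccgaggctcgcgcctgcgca

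TCACNCCAC occurred in the Hmgcs1 window alone, 137 to 129 bases before the start, and 1.05% of all 32851 promoter windows held it. TCACCCCA occurred at the same place in Hmgcs1 and, 162 to 155 bases before the start, in Srebf2, against 1.34% of all windows. The E-box occurred at Insig1 only, 101 to 96 bases before its start, against 6.02% of all windows. CCAAT was found in 6 of the 7 windows of these genes and in 33.8% of all windows, and GGGCGG in 6 of 7 and in 32.7%. The windows of Srebf1 and Lss held none of the first 3 motifs. A match is a run of letters in a window and not a measured binding site. A window without an exact match does not show that SREBPs are unable to bind there, and says nothing about binding elsewhere at the gene.

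Each expression value is an FPKM value (fragments per kilobase of transcript, scaled to the mapped fragments), 1 per gene and group, which Cuffdiff set from the pooled samples of that group. No value per mouse was given, so there was no spread between mice from which a test or an error on a fold could be computed, and the number of reads behind a value is unknown. The table also carries the authors' own test columns, which were not used. In place of a test a rule of size was used. A gene was past the rule when FPKM + 1 differed at least 1.5-fold between 2 groups and reached at least 1 FPKM in the higher. It was applied to the 10297 genes that averaged 1 FPKM or more across the groups. Whether both times went through 1 Cuffdiff run is not given in the sources used here. Ipw, a transcript of the deleted region's neighbourhood, read 21.6 FPKM in WT at Zt +6 and 3.40 in Snord116del, with 3.17 and 1.82 at Zt +16, and Snord116 itself was listed at 0 in all 4 groups. The median FPKM of the tested genes was 3.17 in WT and 5.63 in Snord116del at Zt +6. At Zt +16 it was 2.90 in WT and 4.00 in Snord116del. What made the medians differ between the groups was not tested. Neuron markers were at 2.36 FPKM or more in every group, and the lowest marker of any of 5 brain cell types was at 0.0958, so none was listed at 0.

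Levels of the 6 measured genes ran from 0.952 to 38.7 FPKM, a scale that is per kilobase of transcript. Fdft1, the squalene synthase gene, had the highest FPKM in all 4 groups, followed in all 4 by Insig1. Srebf2, Sqle, Lss and Srebf1 lay below them in changing order. In WT at Zt +6 Fdft1 was 2.65-fold above Insig1, and Insig1 was 3.21-fold above Srebf2. In Snord116del at Zt +6 Fdft1 and Insig1 came within 1.06-fold of each other, and Srebf1 and Lss within 1.02-fold. With 1 value per group, neighbours this close cannot be ranked.

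**Figure D1:**
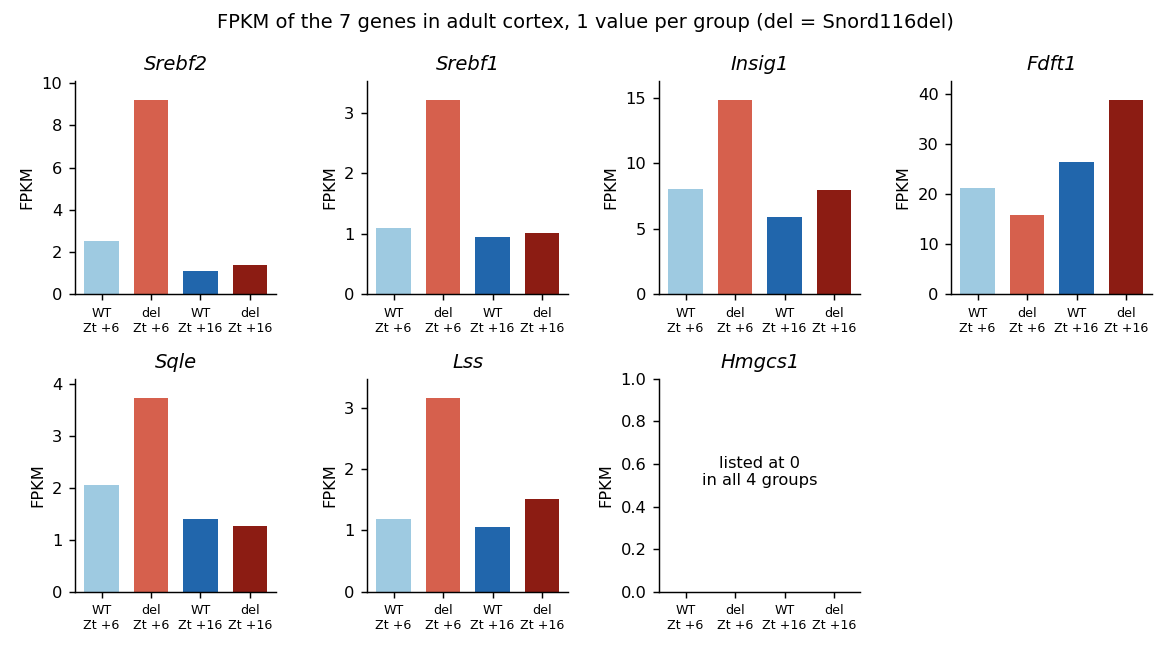
FPKM (y axis, linear, from 0) of the 7 genes in the 4 groups (x axis), with 1 bar per group and no error bar because the table holds 1 value per group. Srebf2, Srebf1, Insig1, Sqle and Lss had their highest bar in Snord116del at Zt +6, Fdft1 had its lowest there (15.7 FPKM), and Hmgcs1 was listed at 0.

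Among the regulators, Srebf2, which encodes SREBP-2, was at 2.50 FPKM in WT at Zt +6 and 9.19 in Snord116del, with 1.09 and 1.4 in WT and Snord116del at Zt +16. The single high value was that of Snord116del at Zt +6, 8.43-fold above the lowest group, the widest range among the 6 genes. Srebf1, which encodes SREBP-1, was at 1.1 and 3.21 FPKM at Zt +6 in WT and Snord116del, and at 0.952 and 1.02 at Zt +16. All but the Snord116del value at Zt +6 lay near 1 FPKM, and the table gives no separate level for the transcripts that begin at its 3 RefSeq windows. Insig1, the sterol-sensing brake on SREBP transport and itself an SREBP target, was at 8.02 and 14.8 FPKM at Zt +6, and at 5.90 and 7.95 at Zt +16. Both Zt +6 values of Insig1 were above both Zt +16 values, that of WT by little.

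Among the enzymes, Sqle (squalene epoxidase, a rate-controlling step of the sterol arm) was at 2.05 FPKM in WT at Zt +6 and 3.73 in Snord116del, with 1.4 and 1.27 in WT and Snord116del at Zt +16. Lss (lanosterol synthase) was at 1.19 and 3.15 FPKM at Zt +6 and at 1.06 and 1.51 at Zt +16. Sqle and Lss thus shared the high value in Snord116del at Zt +6. Fdft1 ran the other way, at 21.2 FPKM in WT at Zt +6 and 15.7 in Snord116del, with 26.4 and 38.7 at Zt +16. Its lowest value was in the group where the other 5 genes were highest.

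The comparison of Snord116del with WT at Zt +6 addresses what loss of the Snord116 region does to cortical transcripts in the light phase. Srebf2 was 3.68-fold higher in Snord116del (a difference of 1.54 on the log2(FPKM + 1) scale), Srebf1 2.91-fold (1.00), Lss 2.65-fold (0.92), Insig1 1.85-fold (0.81) and Sqle 1.82-fold (0.63). These 5 of the 6 genes were past the rule and higher, none was past it and lower, and Fdft1 was 1.35-fold lower (-0.41), short of the rule. Over all tested genes 49.3% were past the rule and higher and 7.62% past it and lower, 56.9% in all, so a gene higher in Snord116del was the common case at this time. The median difference was 0.87 for the 6 genes and 0.57 for all tested genes. Against all tested genes Srebf2 stood at the 94.7th percentile of the difference, Srebf1 at the 73.4th, Lss at the 69.5th, Insig1 at the 63.1st, Sqle at the 53.3rd and Fdft1 at the 10.9th.

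The count of 5 depended on how the groups were put on a scale. It stayed at 5 with every group at the same total FPKM. When the 4 groups were brought to a common median FPKM, 1 gene was past the rule and higher (Srebf2, 0.85) and 1 past it and lower (Fdft1, -1.19), while over all genes the share of calls that were higher went from 86.6% to 37.9%. That scaling moved the median of all genes by -0.63 in this comparison. Srebf2 and Fdft1 were past the rule in opposite directions also after quantile normalization and after the trend on transcript length was taken out. Differences at Zt +6 followed transcript length over the whole table. The median difference was -0.20, 0.34, 0.55, 0.81 and 1.14 from the shortest to the longest of 5 equal bins of genes by their longest annotated transcript. Insig1 and Fdft1 lay in the middle bin, Sqle and Srebf1 in the next longer, and Srebf2 and Lss in the longest. With a smooth trend on length subtracted, the differences were 0.61 for Srebf2, 0.36 for Insig1, 0.18 for Srebf1, -0.22 for Sqle, -0.22 for Lss and -0.91 for Fdft1, with a median of -0.02. The part that transcript length plays in the unadjusted values was not tested.

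**Figure D2:**
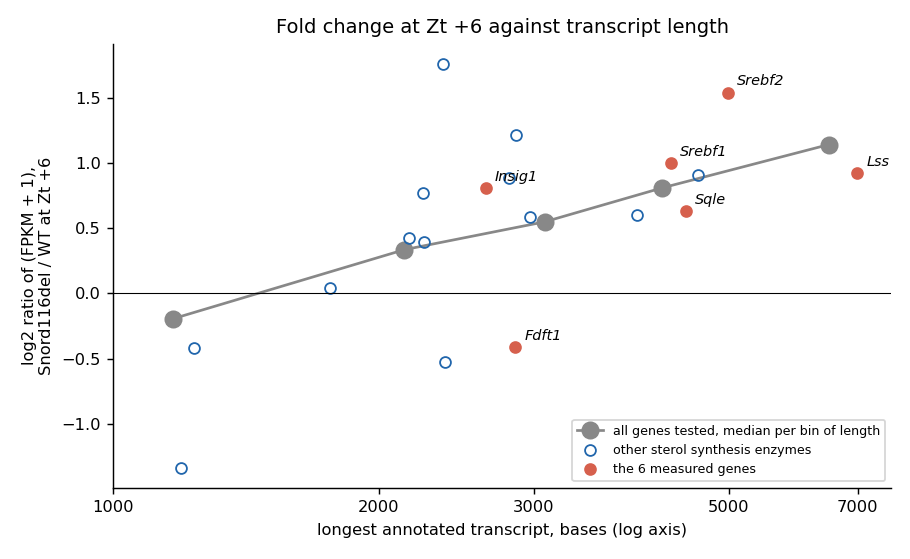
Difference between Snord116del and WT at Zt +6 in log2(FPKM + 1) (y axis) against the length of the longest annotated transcript in bases (x axis, log scale). Grey points give the median of all tested genes per bin of length, from -0.20 to 1.14, red points the 6 measured genes and open points the other enzymes of sterol synthesis. Srebf2 lay above the grey line and Fdft1 below it, with Sqle and Lss slightly under it.

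At Zt +16, in the dark phase, none of the 6 genes was past the rule in the same genotype comparison, against 19.2% of all tested genes (19% higher, 0.204% lower). The differences were 0.54 for Fdft1, 0.38 for Insig1, 0.29 for Lss, 0.20 for Srebf2, 0.05 for Srebf1 and -0.08 for Sqle, with a median of 0.24 against 0.35 for all genes. Fdft1, at 1.47-fold, was closest to the rule, and it was the gene with the lowest difference at Zt +6. Because nearly every gene of the table read higher in Snord116del here, Sqle at 1.4 and 1.27 FPKM stood at the 1.26th percentile of the difference and Srebf1 at the 5.80th. Under the common median the 6 differences lay between -0.36 for Sqle and 0.08 for Fdft1, so that Srebf2 (-0.06), Srebf1 (-0.19) and Insig1 (-0.03) fell on the other side of 0.

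The genotype differences at the 2 times come from separate groups and may be set side by side. Srebf2 went from 1.54 at Zt +6 to 0.20 at Zt +16, Srebf1 from 1.00 to 0.05, Sqle from 0.63 to -0.08, Lss from 0.92 to 0.29 and Insig1 from 0.81 to 0.38. Fdft1 went from -0.41 to 0.54. The change between times was not tested, as each time has 1 value per genotype.

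**Figure D3:**
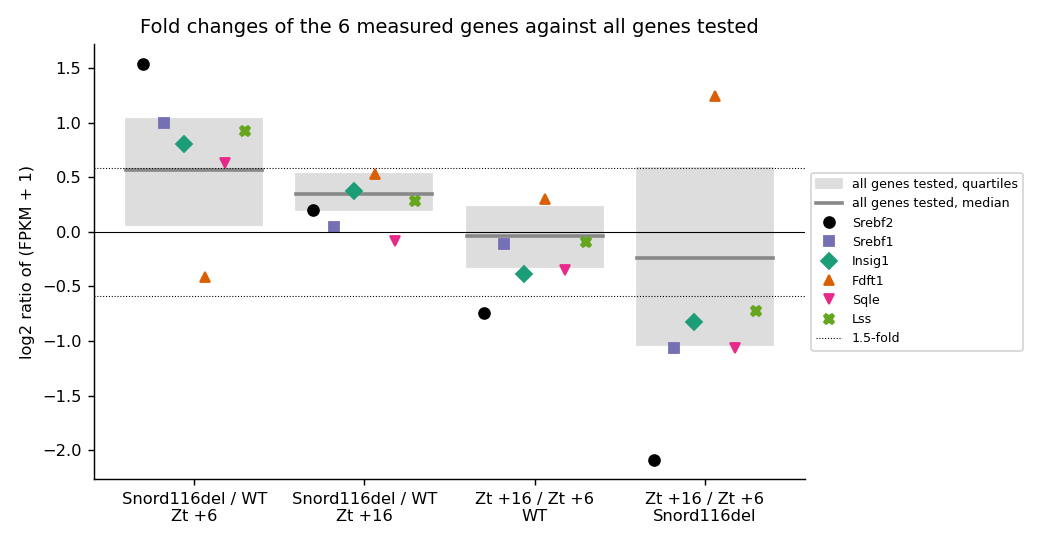
Differences in log2(FPKM + 1) (y axis) of the 6 measured genes in the 4 comparisons (x axis). Grey boxes and lines give the quartiles and median of all 10297 tested genes, and dotted lines mark 1.5-fold. Srebf2 sat above the upper quartile at Zt +6 (1.54) and below the lower quartile in both comparisons of time (-0.74 and -2.09), and Fdft1 sat on the opposite side of the median from it in each of those.

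Zt +16 was then compared with Zt +6 within each genotype, which asks how these transcripts move from light to dark. These comparisons use the same 4 groups as the genotype comparisons, so a high value in Snord116del at Zt +6 enters both. In WT, Srebf2 was the 1 gene of 6 past the rule, 2.29-fold lower in the dark phase (-0.74), against 10.3% of all genes past it and lower, 5.71% higher and 16% in all. Insig1 differed by -0.39, Sqle by -0.35, Srebf1 by -0.11, Lss by -0.09 and Fdft1 by 0.30. The median of the 6 was -0.23, beside -0.04 for all genes. Srebf2 stood at the 5.89th percentile and Fdft1 at the 80.2nd. Srebf2 was short of the rule once the length trend was taken out (-0.54).

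In Snord116del all 6 genes were past the rule between the times, 5 lower and 1 higher in the dark phase, against 39.1% of all genes lower, 25% higher and 64% in all. Srebf2 was 6.58-fold lower (-2.09), Srebf1 3.15-fold (-1.06), Sqle 2.94-fold (-1.06), Lss 2.09-fold (-0.73) and Insig1 1.87-fold (-0.82), while Fdft1 was 2.46-fold higher (1.24). The median was -0.94 for the 6 genes and -0.24 for all. Under the common median Srebf2 (-1.63), Srebf1 (-0.69) and Sqle (-0.67) were past the rule and lower and Fdft1 (1.70) past it and higher, and Lss and Insig1 were at -0.36 each, short of it. With every group at the same total FPKM, Fdft1 was short of the rule (0.19). Over all genes the common median moved the share of calls that were higher from 39% to 57%. With the length trend removed, Lss changed sign to 0.53 and Srebf2 stayed past the rule at -1.23.

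The other enzymes of the pathway were read from a list of 22, which holds Hmgcs1, Fdft1, Sqle and Lss, and of which 18 were tested. At Zt +6, 10 of the 18 were past the rule and higher in Snord116del and 1 lower, against 49.3% and 7.62% of all genes, with a median of 0.60 beside 0.57 for all genes, and without the 3 tested members the counts were 8 and 1 of 15. Among the largest differences were those of Ggps1, which makes geranylgeranyl diphosphate for protein prenylation (3.62 FPKM in WT, 14.7 in Snord116del, 1.76) and Idi1, the isopentenyl diphosphate isomerase (2.17 and 6.35, 1.21). Pmvk, the phosphomevalonate kinase, was the 1 enzyme lower, at 30.4 FPKM in WT and 11.4 in Snord116del (-1.34). With every group on the same median the split was 2 higher and 5 lower, and with the length trend removed 3 and 3. The longest annotated transcript is 1194 bases for Pmvk, 2367 for Ggps1 and 2866 for Idi1.

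**Figure D4:**
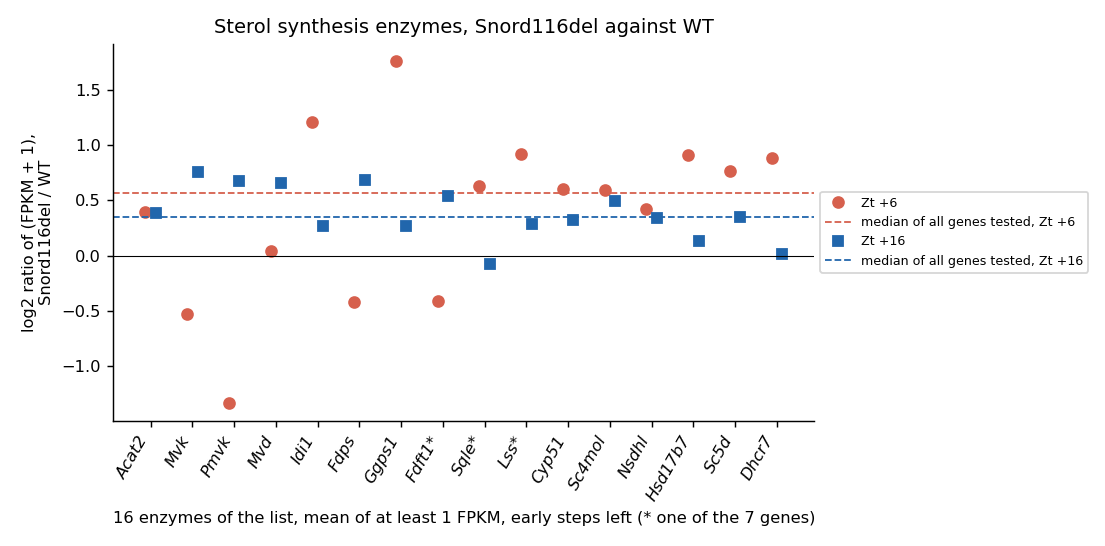
Difference between Snord116del and WT in log2(FPKM + 1) (y axis) for 16 of the 18 tested enzymes, in pathway order (x axis), at Zt +6 (red circles) and Zt +16 (blue squares), with dashed lines for the median of all tested genes at each time (0.57 and 0.35). The Zt +6 points ran from -1.34 for Pmvk to 1.76 for Ggps1, and the Zt +16 points stayed between -0.08 and 0.76. Ggps1 is drawn because the list holds it, although its product serves protein prenylation.

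At Zt +16, 5 of the 18 enzymes were past the rule and higher (19% of all genes were), none of them among the 7 genes, and the median was 0.34 beside 0.35 for all genes. They included Mvk, the mevalonate kinase (8.01 FPKM in WT, 14.2 in Snord116del, 0.76), Fdps, the farnesyl diphosphate synthase (20.3 and 33.3, 0.69), Pmvk (48.8 and 78.4, 0.67) and Mvd, the mevalonate diphosphate decarboxylase (5.72 and 9.60, 0.66). None of the 18 stayed past the rule under a common median, a common total, quantile normalization or removal of the length trend. Between the times in WT, Pmvk was past the rule and higher in the dark phase (0.66) and 3 were past it and lower, among them Ggps1 (-0.92) and Idi1 (-0.67). In Snord116del 4 were higher, Pmvk (2.68), Mvk (1.59), Fdft1 (1.24) and Fdps (1.01), and 8 lower, among them Ggps1 (-2.41), Idi1 (-1.62) and Dhcr7 (-1.19), whose enzyme takes the last step to cholesterol. Of all genes 25% were higher and 39.1% lower there. The split of the enzymes depended on the scaling, with 6 higher and 6 lower under a common median, 2 and 13 under a common total, and 5 and 3 under quantile normalization.

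The SREBP-processing list holds 9 genes with Srebf1, Srebf2 and Insig1 among them, all tested. At Zt +6, 8 were past the rule and higher in Snord116del, against 49.3% of all genes, with a median of 0.84, and without the 3 members it was 5 of 6. The site-1 protease gene Mbtps1 went from 1.15 FPKM in WT to 3.49 in Snord116del (1.06) and the site-2 protease gene Mbtps2 from 1.5 to 4.14 (1.04). Scap, the escort, was the gene short of the rule, at 6.44 and 9.94 FPKM (0.56), and at Zt +16 it was the 1 gene of the list past it (4.73 and 7.75, 0.61), where 19% of all genes were higher. Under a common median the list's median at Zt +6 was 0.11 beside -0.06 for all genes, with Mbtps1 at 0.49 and Mbtps2 at 0.44. With the length trend removed the list's median was 0.14 beside 0.01 for all genes, with Mbtps1 at -0.05 and Mbtps2 at 0.13. In the dark phase against the light phase, Srebf2 alone was past the rule in WT, where 10.3% of all genes were lower, and in Snord116del 6 of 9 were past it and lower, against 39.1%, with Mbtps1 at -1.27 and Mbtps2 at -1.08.

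Of 19 SREBP targets in lipoprotein uptake and fatty acid synthesis, 16 were tested. At Zt +6, 11 were past the rule and higher in Snord116del and none lower (49.3% and 7.62% of all genes), with a median of 0.78 (0.10 under a common median). Scd1, a stearoyl-CoA desaturase, went from 7.18 to 22.6 FPKM (1.53), Elovl6, a fatty acid elongase, from 1.34 to 5.12 (1.38), Fads2, a desaturase of polyunsaturated fatty acids, from 11.1 to 30.5 (1.38), and Gpam, the first enzyme of glycerolipid synthesis, from 0.767 to 3.37 (1.31). With the length trend removed the median of the list was 0.12, and Elovl6 was at 0.33, Gpam at 0.23 and Fads2 at 1.35. At Zt +16, Elovl5 was the 1 gene of the list past the rule (8.67 and 13.7 FPKM, 0.61), with 19% of all genes higher. In WT, Fads2 (-1.22), Elovl6 (-0.75) and Scd1 (-0.63) were past it and lower in the dark phase, and in Snord116del 8 were lower, with Fads2 at -2.20 and Elovl6 at -2.16, and 2 higher. The shares of all genes lower and higher were 10.3% and 5.71% in WT and 39.1% and 25% in Snord116del. Of 14 genes of sterol export, transport and turnover, 12 were tested. Past the rule were 7 higher and none lower at Zt +6, and 3 higher at Zt +16, against 49.3% and 19% of all genes higher, among them Cyp46a1, the neuronal cholesterol 24-hydroxylase by which the brain clears cholesterol (35.2 FPKM in WT, 83.1 in Snord116del, 1.22). Between the times the counts were 1 higher and 2 lower in WT, and 1 higher and 5 lower in Snord116del, to be read against the same shares of all genes.

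The levels of cell type markers of the cortex also differed between the groups. In bulk tissue, fewer cells of a type and less RNA per cell cannot be told apart. At Zt +6 in Snord116del against WT, all 8 astrocyte markers and all 7 tested endothelial markers were past the rule and higher, with 6 of 10 for neurons, 4 of 8 for oligodendrocytes and 4 of 7 tested for microglia, and none lower. As 49.3% of all genes were higher, the counts for neurons, oligodendrocytes and microglia were near the background share. The summed FPKM of the astrocyte markers was 120 in WT at Zt +6 and 342 in Snord116del, with 74.4 and 114 at Zt +16. That of the endothelial markers was 9.82, 31.0, 6.01 and 7.22 in the same order, that of the neuron markers 776, 1108, 642 and 900.2, and that of the microglial markers 68.9, 102, 78.2 and 145. The oligodendrocyte sum was 511, 806, 782 and 1139. The oligodendrocyte and microglial sums had their highest value in Snord116del at Zt +16, where Fdft1 was also highest. Total FPKM over all genes was highest there too, at 159300, 160199, 216422 and 342188 in the same order. The sums are not scaled to that total. The astrocyte, endothelial and neuron sums had their highest value in the group where Srebf2, Srebf1, Insig1, Sqle and Lss did. Under a common median the median marker difference at Zt +6 was 0.56 for astrocytes, 0.47 for endothelium, -0.07 for neurons, -0.14 for oligodendrocytes and -0.14 for microglia, beside 0.21 for the 6 genes and -0.06 for all genes. The part of these cell types in the differences was not tested.

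For each gene, the tested genes with the most similar profile over the 4 groups were found by the root mean square (RMS) difference of log2(FPKM + 1) after centring. Srebf2 was closest to Usp15 (2.69, 9.85, 1.21 and 1.55 FPKM in the order WT and Snord116del at Zt +6, then at Zt +16, RMS difference 0.00578) and Vps13a (0.0125). Fdft1 was closest to Pole3 (4.32, 2.96, 5.41 and 8.48 FPKM, 0.0122). Sqle was closest to Rhbdd3 and Gm9159, Insig1 to Chfr and Phka2, Srebf1 to Iws1 and Slc22a23, and Lss to Kazn and Ing1, with RMS differences from 0.00933 to 0.0224. The closest of the 6 genes to Srebf2 was Srebf1 (0.461), which ranked 2761 among the tested genes by likeness, and the closest to Fdft1 was Lss (0.76). Sqle, Insig1, Srebf1 and Lss were nearer to each other, with RMS differences of 0.111 to 0.150 to their nearest. Even so, that nearest gene ranked only 408 for Sqle, 752 for Insig1, 881 for Srebf1 and 1049 for Lss among the tested genes. A profile over 4 values ranks many genes as near.

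Hmgcs1, the cytosolic HMG-CoA synthase gene, was listed at 0 FPKM in each of the 4 groups, as were 821 of the 23235 genes (3.53%). The nearest 4 genes of the table in the RefSeq gene order of GRCm38.p6, 2 on each side, Ccl28, 1700074H08Rik, Zfp131 and AF067063, were also at 0 in all groups. Nnt and Paip1, further along the same chromosome, were not, with 1.36, 3.36, 0.842 and 1.16 FPKM for Nnt in the order above. The 300 bases of the Hmgcs1 promoter window matched the NCBIM37 (mm9) assembly, the build of the files, exactly on 2 unplaced contigs and on no chromosome, and the windows of Ccl28 and Zfp131 also matched unplaced contigs alone. The windows of Insig1, Lss, Srebf1 and Srebf2 each matched 1 place on a chromosome of that assembly. Hmgcs1 was absent from the GENCODE annotation of that build used here. The part of this placement in the zeros was not tested, and no level of Hmgcs1 is read from them.

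Peaks of 116HG were looked for from 2 kb before to 2 kb after the 6 genes that the mm9 annotation holds. In WT 116HG replicate 1 all 6 genes had a peak, against 93.6% of the tested genes in the annotation, so that a peak in this library was the common case. There were 40 such peaks, 15 at Srebf2, 12 at Fdft1, 5 at Srebf1, 4 at Insig1, 3 at Sqle and 1 at Lss. The genes are 58.1, 32.6, 23.5, 7.25, 16.1 and 25.6 kb long in that order. Of the 40 peak centres 31 lay over an exon, 18 of them over coding exon and 9 over a 3′ UTR, 2 lay in an intron and 7 outside the gene. The places of the library's other peaks were not counted, so these counts are not read as particular to the genes. Fold over input, which the authors' MACS run gave per peak, ranged from 30.5 to 462 with a median of 61.6, beside 55.3 for all peaks of the library. The highest, at chr14:63761074-63762039, lies beyond the 3′ end of Fdft1 and overlaps the neighbouring gene Ctsb, as do the 3 other downstream peaks there.

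A replicate 1 peak lay over the annotated start of Sqle (chr15:59146609-59146850, 123-fold over input), Insig1 (chr5:28397914-28398047, 61.6-fold), Srebf2 (chr15:81977682-81977929, 205-fold) and Fdft1 (chr14:63796558-63796704, 164-fold). That is 4 of 6 genes, against 14.7% of tested genes in the annotation. None of these 4 peaks had a replicate 2 peak within 10 kb. At Srebf2 the peak ran from 17 bases before to 230 bases after the RefSeq start, so it met only the last bases of the window printed above and not its TCACCCCA. At Insig1 it ran from 38 bases before to 95 after the start, and did not reach the E-box. At Srebf1 a peak lay 60 to 129 bases after the start that belongs to the printed window, and none lay within 200 bases of its other 2 starts.

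In WT 116HG replicate 2, Srebf2 was the 1 gene of the 6 with a peak, against 17.5% of tested genes. The peak lay in an intron. Within 10 kb of it lay 6 replicate 1 peaks, and none overlapped it. Of the tested genes 18% had a replicate 1 peak with a replicate 2 peak within 10 kb.

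In the control libraries no peak lay near 5 of the 6 genes. Srebf1 had 1 peak with 116HG oligos in Snord116del brain (20.8-fold over input, chr11:60020299-60020584) and 1 with NSC oligos in Snord116del brain (22.8-fold, chr11:60016383-60017041), both over coding exons, and none with NSC oligos in WT brain. The shares of tested genes with a peak in these libraries were 2.86%, 10.6% and 2.53%. Each control is 1 library, and peaks are not compared with expression here, since 93.6% of the tested genes had a replicate 1 peak within 2 kb.

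**Figure D5:**
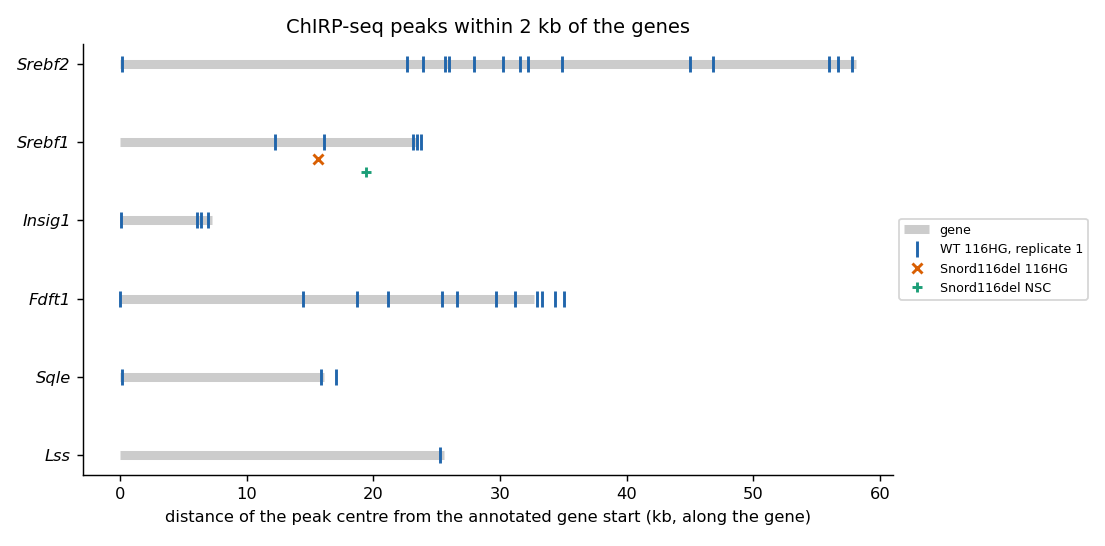
Centres of ChIRP-seq peaks by distance from the annotated gene start in kb along the gene (x axis) for the 6 annotated genes (rows, grey bars to scale). Blue ticks are the 40 peaks of WT 116HG replicate 1, and the cross and plus the peaks of the 2 Snord116del libraries at Srebf1. The 1 peak of WT 116HG replicate 2 is not drawn. Ticks were most numerous at Srebf2 (15) and Fdft1 (12).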

How the data were processed

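RNA-seq covered 9 cortex samples in 4 groups and ChIRP-seq 5 brain libraries with an input. Per the labels and the study's methods, the authors aligned reads to mm9 with TopHat2 2.0.5 and set 1 FPKM value per gene and group with Cuffdiff 2.0.2. The deposited FPKM values keep neither replicates nor read counts per gene, so no test or error was possible. The paper lists the reads of each RNA-seq sample, but the fragments behind each value are unknown. The same table has the authors' own log2 fold changes, test statistics, p-values and q-values with a significance call, which were not used. ChIRP reads were aligned with Bowtie2 2.0.0 and peaks called per library with MACS 1.4.2, and the deposited column is a fold ratio over input (lowest value 20.01). WT 116HG replicate 2 was deposited with positions only. Versions are from the submitters' processing notes. The table has 0 further per-sample columns.

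Differences were taken as log2(FPKM + 1), which understates changes of low genes, over genes averaging 1 FPKM or more, and called at 1.5-fold with at least 1 FPKM in the higher group. Transcript length was the longest transcript in GENCODE on NCBIM37, known for 98.7% of tested genes, and its trend was fitted by lowess (fraction 0.3, statsmodels 0.14.6). Peaks were joined to genes within 2 kb, and replicates within 10 kb. Named genes were the 7 genes throughout, from every other list up to 4 of the largest rises and falls past the rule, up to 2 of the most alike profiles per gene, and Ipw and Snord116. Neighbours of Hmgcs1 and overlapping genes at peaks were named after their values were seen. The genes, lists, motifs and rules were chosen with earlier results of these data known. The functions were tested on simulated data. Some items are not reported here.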

Additional observations from a re-analysis of the deposited data

Results flagged for a closer look

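The difference between Snord116del and WT in log2(FPKM + 1) had opposite signs at the 2 times for 2 of the 6 measured genes. For Fdft1 it was -0.41 at Zt +6 (21.2 FPKM in WT, 15.7 in Snord116del) and 0.54 at Zt +16 (26.4 and 38.7), -0.95 between the times. For Sqle it was 0.63 at Zt +6 (2.05 and 3.73) and -0.08 at Zt +16 (1.4 and 1.27), 0.71 between the times, with the second effect close to 0. With 1 value per group, neither difference between the times was tested.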

How the results depend on the processing

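No paired analysis was possible because the table gives 1 value per group, and no mouse could be left out for the same reason. The counts that follow are of genes past the rule, out of 6 measured genes and 18 enzymes. For Snord116del against WT at Zt +6, 5 of the genes were called, and 2 under a common median, quantile normalization, the length trend or a fold of 2, and 1 with the minimum mean raised to 5 FPKM (2 genes left). For the enzymes the 11 became 7 under a common median, 6 with the length trend removed, and 4 with a fold of 2 or that higher minimum. At Zt +16 the 5 enzymes became 0 under a common median, a common total, quantile normalization, the length trend or a fold of 2. Between times in WT, the 1 gene became 3 under a common total and 0 with the length trend removed, a fold of 2 or the higher minimum, and the 4 enzymes became 1 under quantile normalization, 2 with the length trend removed and 0 at a fold of 2. Between times in Snord116del, the 6 genes became 3 under quantile normalization or the length trend and 2 with the higher minimum (2 genes left), and the 12 enzymes 6 with that minimum (9 left). Among differences past the rule the sign changed in 4 cases. Sqle at Zt +6 went from 0.63 to -0.054 under quantile normalization and -0.22 with the length trend removed, Lss at Zt +6 from 0.92 to -0.22 and Lss between times in Snord116del from -0.73 to 0.53, both with the length trend removed. The cause was not tested. Differences short of the rule also changed sign, at Zt +16 those of Insig1 (-0.03), Srebf1 (-0.19) and Srebf2 (-0.06) under a common median and of Fdft1 (-0.10) and Lss (-0.08) under a common total, and between times in WT those of Fdft1 (-0.13) under a common total and of Srebf1 and Lss (0.15 each) under quantile normalization. Results under a pseudocount of 0.1 FPKM and with no filter on low values kept every direction and call of the 6 genes. Of the 6 genes with a 116HG peak, 1 was left without replicate 1 and 6 without replicate 2. The 1 gene with a replicated peak became 0 when peaks had to overlap and 2 within 50 kb, settings chosen after seeing the data. Without replicates or read counts per gene, no interval can be put on any FPKM value.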
